A study of Mus musculus with 2 samples.

Results

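The genes described here encode the enzymes of phase I drug oxidation in mouse liver other than those of the Cyp2b, Cyp2c and Cyp4 families. The list holds 30 genes, which are 21 cytochromes P450 of the Cyp1a, Cyp2a, Cyp2d, Cyp2e, Cyp2f, Cyp2g, Cyp2j, Cyp2u and Cyp3a families, 3 genes of electron supply, 4 flavin monooxygenases and 2 epoxide hydrolases, out of 18194 genes named on the array. They were chosen by name. Each gene was read from its brightest probe set by the mean of both pools, and counted as measured if the signal exceeded 500 in FLS or DS livers, which held for 21 of the 30 genes and for 5076 genes in all.

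FLS (fatty liver Shionogi) mice, an inbred strain bred from line C of outbred ddN mice, were compared with DS (dd Shionogi) mice, an inbred strain bred from line A of the same outbred mice. Both strains ate a standard pellet diet and were examined at 19 weeks of age. By pathology the submitters then found steatohepatitis in most FLS mice, and fatty liver without steatohepatitis in most DS mice. Pathology of the pooled mice alone is not given. Livers were perfused with saline, and the RNA of 3 mice per strain was pooled and put on 1 array per strain. The strains also differ in their whole genetic background, so strain, liver disease and array cannot be told apart, and the sources used here do not give the sex of the mice. As each strain has a single array, the differences below are values of these pools, without p-values or a check by replicates. A pool averages its mice, and in whole liver fewer cells of a type and less RNA per cell cannot be told apart.

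Cytochromes P450 are heme enzymes of the endoplasmic reticulum that insert 1 oxygen atom of molecular oxygen into drugs, steroids and fatty acids. They draw their electrons from NADPH through P450 oxidoreductase, encoded by Por, and in part from cytochrome b5. Flavin monooxygenases oxidize nitrogen and sulfur atoms without heme, and epoxide hydrolases open the reactive epoxides that P450 enzymes form. Hepatocytes, above all those around the central vein, carry most of this machinery, and the nuclear receptors PXR and CAR and the aryl hydrocarbon receptor (AHR) are known to induce many of its genes.

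Most of these enzyme genes, like most of all measured genes, had nearly the same signal intensity in FLS livers as in DS livers. Of the 21 measured genes, 0 were higher by 2-fold or more in FLS livers and 0 were lower by as much, where 2.29% of all measured genes were higher and 1.77% were lower by 2-fold or more. At a 1.5-fold limit 2 genes were higher, Fmo1 and Cyp1a2, and 0 were lower, against 6.11% and 4.49% of all measured genes. The FLS/DS ratios ran from 0.795 for Ephx2 to 1.93 for Fmo1, with 11 genes above 1 and 10 below, and under 4 other scalings of the arrays 11 stayed above 1, 4 stayed below and 6 changed sides. The median log2 ratio was 0.02 for these 21 genes and 0.04 for all measured genes, with SDs across genes of 0.31 and 0.49. A difference of less than 1.2-fold was found for 15 of the 21 genes (71.4%) and for 63.6% of all measured genes.

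Many of these genes gave very bright signals, where ratios near 1 were also more frequent among all measured genes. Of the 21 genes, 14 had a mean signal above 5000, as did 481 of all measured genes. Among these 14 genes 11 lay within 1.2-fold of 1 (78.6%), against 80.2% of the 481. At least 1.5-fold higher were 1 of the 14 (Cyp1a2) and 3.53% of the 481, and at least 1.5-fold lower were 0 and 2.91%. At the 2-fold limit 0 of the 14 were higher or lower, against 1.04% and 0.624% of the 481. Over all probe sets the median signal was 120.3 on the FLS array and 125.2 on the DS array, and the highest was 32018 on the FLS array and 30942 on the DS array. The scaling between the arrays, beyond their normalization by the authors, was not found in the sources used. Division by Actb, which had an FLS/DS ratio of 0.867, would move every log2 ratio up by 0.21, and then 171 of all measured genes would be higher and 72 lower by 2-fold or more, in place of 116 and 90.

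**Figure D1:**
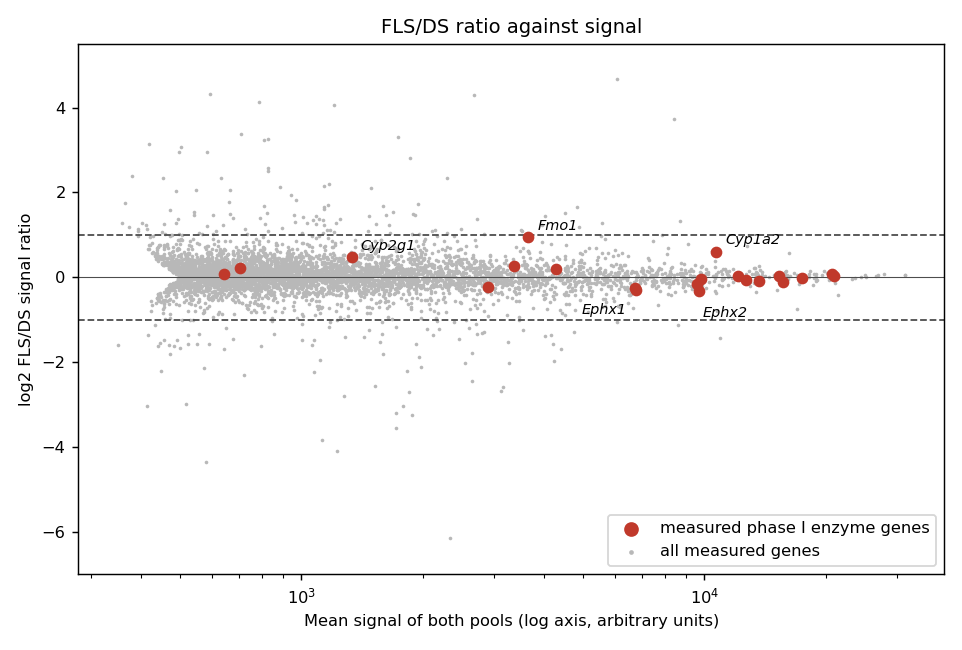
The log2 FLS/DS signal ratio (vertical axis) against the mean signal of both pools (log axis) for the 21 measured phase I enzyme genes (red) and all 5076 measured genes (grey), 1 array per strain. The dashed lines mark a 2-fold difference, which none of the red points reached, with Fmo1 closest at a ratio of 1.93.

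Cyp1a2 and Cyp1a1 are neighbours that share AHR as an inducer. Cyp1a2 oxidizes caffeine and aromatic amines and is expressed in the liver without an inducer, while Cyp1a1 is nearly silent there until an inducer is given. Cyp1a2 had a signal of 12903 in FLS livers and 8476 in DS livers, a ratio of 1.52 and rank 299 from the top among the measured genes. Over the other scalings its ratio lay between 1.52 and 1.76. Cyp1a1 had a signal of 135 in FLS livers and 125 in DS livers. Both values lie near the array medians, so that Cyp1a1 was not measured in either pool and its ratio of 1.09 carries no direction.

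The promoter sequences of this pair show what they share and where they differ next to the start of transcription. The RefSeq promoter table holds the 250 bases before and 50 bases after each start (build GRCm38.p6), and it matched 23 of the 30 genes. The 250 bases before the start are printed 5′ to 3′ with the TATA box, TATAAA, and the AHR core motif, GCGTG, in capitals. They lie at chr9:57697363-57697612 (plus strand) for Cyp1a1 and chr9:57683656-57683905 (minus strand) for Cyp1a2.
Cyp1a1: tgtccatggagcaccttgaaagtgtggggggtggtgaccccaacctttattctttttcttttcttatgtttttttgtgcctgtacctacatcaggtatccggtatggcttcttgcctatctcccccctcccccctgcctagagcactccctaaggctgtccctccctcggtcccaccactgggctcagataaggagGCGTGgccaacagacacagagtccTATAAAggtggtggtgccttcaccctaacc
Cyp1a2: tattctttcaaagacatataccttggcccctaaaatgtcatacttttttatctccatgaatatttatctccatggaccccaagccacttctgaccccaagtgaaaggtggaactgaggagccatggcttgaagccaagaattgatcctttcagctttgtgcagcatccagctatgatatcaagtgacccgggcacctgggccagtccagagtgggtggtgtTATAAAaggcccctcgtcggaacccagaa
The Cyp1a1 stretch held 1 AHR core 54 bases before the start and a TATA box 30 bases before it, and the Cyp1a2 stretch held a TATA box 29 bases before the start and no AHR core. Both strands were searched, and the motifs did not overlap. In the full 300 bases GCGTG was found in 2 of the 23 genes (Cyp1a1 and Por) and in 32.4% of 32851 promoters. A match is a description of letters, and no binding was measured.

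Ahr itself, the receptor gene, had a signal of 1732 in FLS livers and 709 in DS livers, a ratio of 2.44 on its brighter probe set. Its other probe set gave 219.5 in FLS livers and 205 in DS livers, a ratio of 1.07 at a low signal. Of 8 other genes known as AHR targets, 6 were on the array and 1 was measured, Gsta2, a glutathione transferase, with a signal of 5628 in FLS livers and 4265 in DS livers. Below 500 in both pools were Nqo1, at 173 in FLS livers and 102 in DS livers, Cyp1b1 at 201 and 178, Tiparp at 201 and 224, Aldh3a1 at 99.8 and 96.8, and Ahrr, the AHR repressor, at 57.1 and 66.0. The higher signal of Ahr in FLS livers thus stood beside a 1.52-fold Cyp1a2 and low signals of Cyp1a1 and of most other targets in both pools.

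The Cyp2a family oxidizes coumarin, nicotine and steroids. Cyp2a12, a steroid hydroxylase, had a signal of 9651 in FLS livers and 9985 in DS livers, a ratio of 0.967. Cyp2a5, the coumarin hydroxylase, and Cyp2a4, a testosterone hydroxylase, share a single probe set, which carries both symbols and therefore gives no value for either gene. That probe set had a signal of 12954 in FLS livers and 10162 in DS livers, a ratio of 1.27. Cyp2a22 had no annotated probe set and was not analysed here. The promoters of Cyp2a4 and Cyp2a5 are printed to show how alike they are, with the TATA box in capitals, from chr7:26306942-26307191 (plus strand) for Cyp2a4 and chr7:26835089-26835338 (plus strand) for Cyp2a5.
Cyp2a4: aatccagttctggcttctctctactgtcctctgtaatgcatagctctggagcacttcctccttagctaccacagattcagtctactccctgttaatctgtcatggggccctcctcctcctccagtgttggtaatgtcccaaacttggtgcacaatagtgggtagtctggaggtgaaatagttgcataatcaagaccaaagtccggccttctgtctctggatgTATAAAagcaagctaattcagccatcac
Cyp2a5: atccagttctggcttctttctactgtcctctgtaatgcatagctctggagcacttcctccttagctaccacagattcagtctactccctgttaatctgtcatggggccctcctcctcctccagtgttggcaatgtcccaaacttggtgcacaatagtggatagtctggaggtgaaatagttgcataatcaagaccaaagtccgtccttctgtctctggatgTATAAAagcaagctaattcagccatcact
Aligned from end to end, 245 of 251 columns were identical (97.6%), against 123 of 271 columns (45.4%) for Cyp1a1 and Cyp1a2. TATAAA on either strand, starting between 25 and 40 bases before the start, was found in 10 of the 23 genes with a promoter (43.5%), all of them P450 genes of the Cyp1a, Cyp2a, Cyp2d and Cyp2e families, and in 2.36% of all promoters. Anywhere in the 300 bases TATAAA was found in 16 of the 23 genes (69.6%) and in 13.6% of all promoters.

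The Cyp2d family oxidizes many basic drugs, and Cyp2d9 is known as a male-predominant testosterone hydroxylase. Its signal was 15036 in FLS livers and 16263 in DS livers, a ratio of 0.925. Cyp2d10 had 13277 in FLS livers and 14119.6 in DS livers, and Cyp2d26 had 12371 and 12941, with ratios of 0.940 and 0.956. These 3 genes lay within 1.2-fold of 1 and change sides if the ratios are divided by that of Actb. Cyp2d22 had a signal of 3688 in FLS livers and 3056 in DS livers, a ratio of 1.21, and its other probe set, at 2591 and 2056, gave 1.26. Under the other scalings the ratio of Cyp2d22 stayed above 1 and reached 1.39 after division by Actb.

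Outside the list, some Cyp2d genes of the same cluster had larger differences. Cyp2d40 had a signal of 1185 in FLS livers and 4111 in DS livers, a ratio of 0.288. Cyp2d12, not measured by the limit of 500, had 402 in FLS livers and 150.1 in DS livers, a ratio of 2.68 with a DS signal near the array median. Cyp2d13, annotated as a transcribed pseudogene, had a ratio of 0.952. In chromosomal order Cyp2d40 lies between Cyp2d13 and Cyp2d26, both within 1.2-fold of 1. Genes of this cluster are similar in sequence, probes may cross-hybridize, and no probe sequences were used here.

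Cyp2e1, which oxidizes ethanol and acetone and turns paracetamol into its toxic product, had a signal of 21315 in FLS livers and 20203 in DS livers, a ratio of 1.06. Cyp2f2, known for the oxidation of naphthalene, had 17326 in FLS livers and 17631 in DS livers. Cyp2g1, known mainly from the olfactory mucosa, had 1554 in FLS livers and 1115 in DS livers. Its ratio of 1.39, between 1.37 and 1.61 under other scalings, was the third highest among the 21 genes, while Cyp2e1 and Cyp2f2 lay within 1.2-fold of 1. The genes of arachidonic acid epoxygenases, Cyp2j5 and Cyp2j6, were measured as well. Cyp2j5 had a signal of 6152 in FLS livers and 7295 in DS livers, a ratio of 0.843, and its other probe set, at 774 and 1030.2, gave 0.751. Cyp2j6 had 659 in FLS livers and 624 in DS livers and was the measured gene closest to the signal limit. Cyp2u1, a fatty acid hydroxylase gene, had 758 in FLS livers and 655 in DS livers, a ratio of 1.16. Under each scaling tried Cyp2j5 stayed below a ratio of 1, and Cyp2j6 and Cyp2u1 stayed above it.

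On chromosome 7 the Cyp2a, Cyp2f and Cyp2g genes share a cluster with Cyp2b genes, of which Cyp2b10 is the classical target of CAR. In chromosomal order Cyp2b10, Cyp2b13 and Cyp2b9 all come before Cyp2g1, Cyp2a12 and Cyp2f2. Cyp2b10 had a signal of 1501 in FLS livers and 156 in DS livers, a ratio of 9.60 over a DS signal near the array median. Cyp2b13 had 89.8 in FLS livers and 737 in DS livers, a ratio of 0.122 with an FLS signal below the array median. Both genes passed the signal limit only through the pool where they are high, and the size of such a ratio depends on the background of the array. Cyp2b9, above the limit in both pools, had 1028 in FLS livers and 1298 in DS livers. The 3 measured listed genes of the cluster, Cyp2a12, Cyp2f2 and Cyp2g1, had ratios between 0.967 and 1.39.

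**Figure D2:**
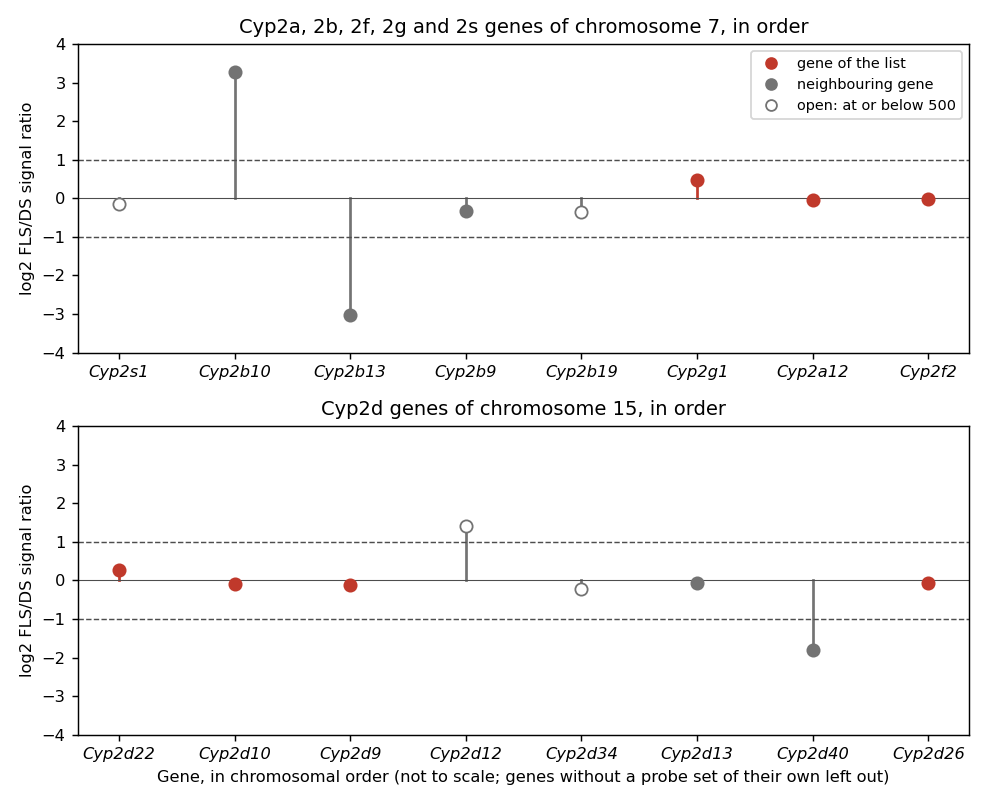
The log2 FLS/DS signal ratio of the genes of the Cyp2 cluster on chromosome 7 (upper panel) and of the Cyp2d genes on chromosome 15 (lower panel), in chromosomal order and not to scale. Listed genes are red and neighbours grey, open points did not exceed 500, dashed lines mark a 2-fold difference, and all red points lie between them. Cyp2d40 lies beyond the lines with signals above 500 in both pools, and Cyp2b10 and Cyp2b13 lie beyond them with a signal above 500 in 1 pool only. The open point of Cyp2d12, at 402 in FLS livers and 150.1 in DS livers, also lies beyond them.

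Cyp3a11 is the main drug-oxidizing Cyp3a enzyme of mouse liver and a classical PXR target. Its signal was 21104 in FLS livers and 20738 in DS livers, a ratio of 1.02. Cyp3a25, its neighbour, had 12238 in FLS livers and 12056 in DS livers, and the ratios of both genes lay between 1.01 and 1.17 under the other scalings. Cyp3a13, which lies apart from the other Cyp3a genes on the same chromosome, had 2671 in FLS livers and 3134 in DS livers, a ratio of 0.852. Cyp3a16, known from fetal and young liver, had 45.9 in FLS livers and 44.5 in DS livers, above only 1.02% and 0.736% of the probe sets of the arrays. Cyp3a41a, a female-predominant gene, shares its probe set with its copy Cyp3a41b, and that probe set, which stands for neither gene alone, had 710.0 in FLS livers and 641 in DS livers, a ratio of 1.11. None of the 3 measured Cyp3a genes thus differed by 1.2-fold or more.

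Because several of these genes are sex-dependent in mice, transcripts of the sex chromosomes were read as well. The Y-linked Eif2s3y had a signal of 1080.1 in FLS livers and 1249 in DS livers, and Xist, which is expressed from the inactive X chromosome, had 106 in FLS livers and 117 in DS livers, near the array medians. Kdm5d and Uty, both Y-linked, stayed below 500, with 222 in FLS livers and 190.3 in DS livers for Kdm5d and 212 and 239 for Uty. None of these 4 transcripts differed by 1.2-fold or more.

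Of the electron donors, Cyb5, now named Cyb5a, had a signal of 15449 in FLS livers and 15113 in DS livers, a ratio of 1.02. Cyb5r3 encodes the reductase that passes electrons from NADH to cytochrome b5. Its brightest probe set had 4572 in FLS livers and 4008 in DS livers, a ratio of 1.14. Of the other 3 probe sets of Cyb5r3, one at 3801 in FLS livers and 3463 in DS livers gave 1.10, one at 531 and 785 gave 0.676, and one at 117 and 126 gave 0.930, so the probe sets did not point one way. Por had no probe set annotated to it and was not analysed here. Among 14 measured genes of a wider list on electron transfer and heme supply, 0 reached 1.5-fold in either direction. Of all measured genes 6.11% were higher and 4.49% lower by as much. Alas1, the rate-limiting enzyme of heme synthesis, had a signal of 5557 in FLS livers and 7419 in DS livers (ratio 0.749), and Fdx1, the mitochondrial ferredoxin that feeds other P450 enzymes, had 4602 and 6613 (ratio 0.696). Blvrb, a biliverdin reductase, had a ratio of 1.37 and the heme oxygenase gene Hmox2 of 1.32.

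Fmo1 had the largest difference of all listed genes. This flavin monooxygenase oxidizes drugs such as amines and thioethers in mouse liver. Its signal was 4814 in FLS livers and 2496 in DS livers, a ratio of 1.93, which ranked 127 from the top among the 5076 measured genes. It is represented by a single probe set. Under the other scalings the ratio lay between 1.91 and 2.22, so that it passed the 2-fold limit after division by Actb and not otherwise. Fmo5, the other measured member of the family, had a signal of 9062 in FLS livers and 10158 in DS livers on its brightest probe set, a ratio of 0.892 that turns above 1 after division by Actb. Its other probe sets were lower in FLS livers by more, at 2599 in FLS livers and 3697 in DS livers (ratio 0.703) and at 1134 and 1833 (ratio 0.619). Fmo2, best known from lung, had 174 in FLS livers and 203 in DS livers, and Fmo4 had 158 and 178, the values closest below the signal limit. Fmo1 lies between Fmo4 and Fmo2 on chromosome 1, neither of which was measured.

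**Figure D3:**
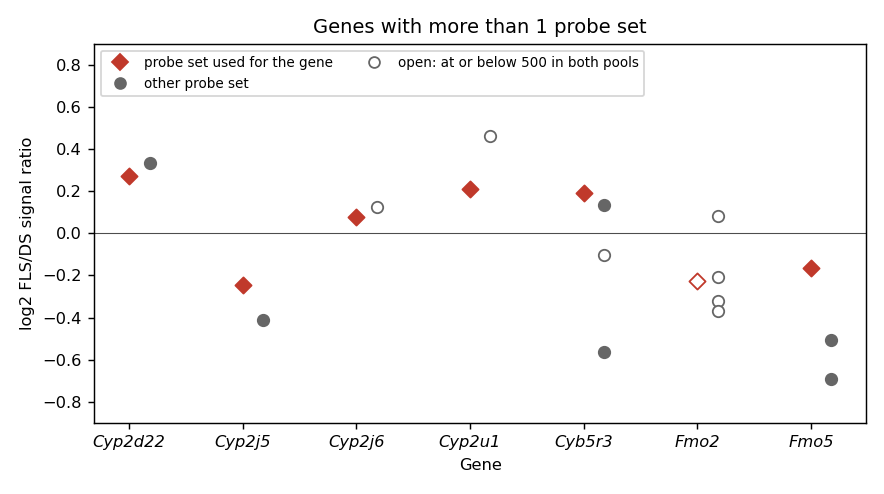
The log2 FLS/DS signal ratio of every probe set of the 7 listed genes that have more than 1, with the probe set used for the gene as a diamond and the others as circles, open where the signal did not exceed 500 in either pool. As deposited, Fmo5 has all of its probe sets below 0, with ratios of 0.892, 0.703 and 0.619, while those of Cyb5r3 lie on both sides, from 0.676 to 1.14.

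Both epoxide hydrolases had lower signals in FLS livers under every scaling that was tried. Ephx1, the microsomal enzyme that hydrolyses epoxides of drugs and aromatic hydrocarbons, had a signal of 6046 in FLS livers and 7477 in DS livers, a ratio of 0.809. Ephx2, the soluble enzyme that hydrolyses fatty acid epoxides such as those made by Cyp2j enzymes, had 8568 in FLS livers and 10784 in DS livers, a ratio of 0.795. These were the lowest ratios of the 21 measured genes as read from their brightest probe sets. With the median over probe sets Fmo5 was the lowest, at 0.703. Over the other scalings they ranged from 0.806 to 0.932 for Ephx1 and from 0.779 to 0.916 for Ephx2, and neither reached 1.5-fold. Each gene has a single probe set.

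**Figure D4:**
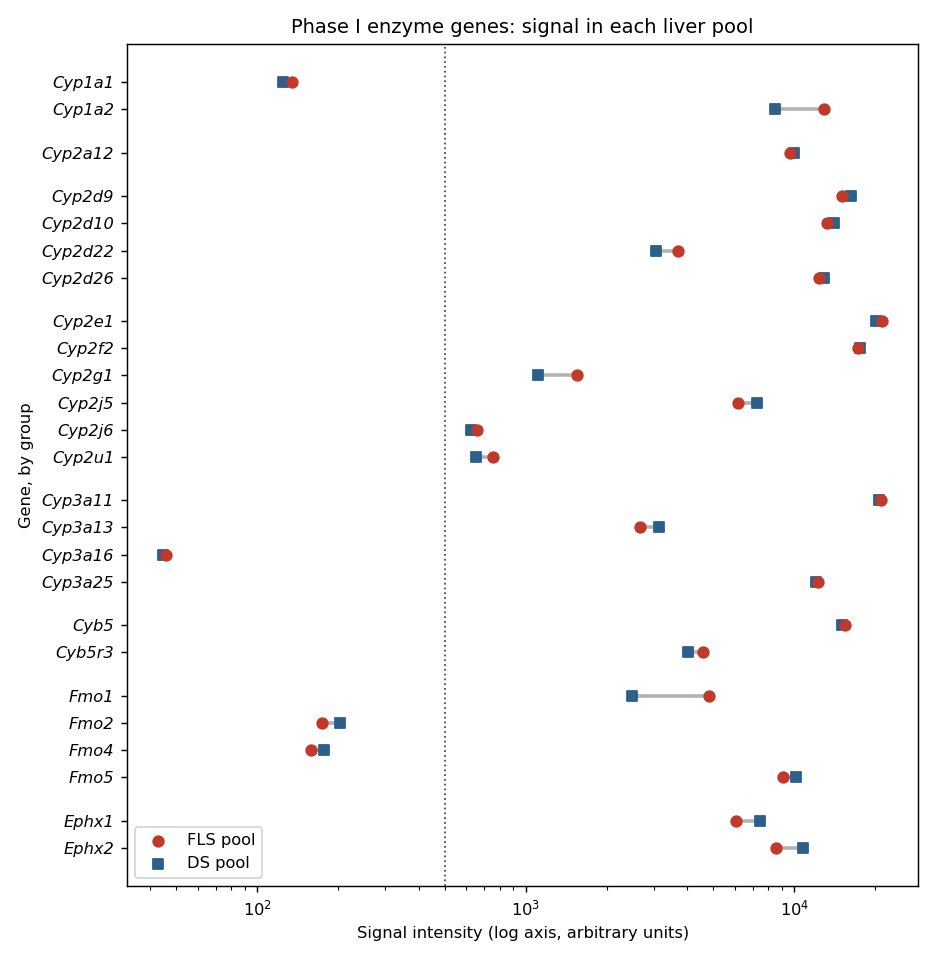
Signal intensity (log axis) of the 25 listed genes that have a probe set of their own, with circles for FLS livers and squares for DS livers, 1 array each, with a dotted line at 500. The pools lie furthest apart for Fmo1 (4814 in FLS and 2496 in DS livers) and Cyp1a2 (12903 and 8476), while most pairs lie close together, and Cyp1a1, Cyp3a16, Fmo2 and Fmo4 lie left of the line in both pools.

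Receptors and factors known to control P450 genes had ratios from 0.693 to 2.76. Of 25 such genes 20 were measured. Of these, 2 were higher by 2-fold or more in FLS livers, against 2.29% of all measured genes, and 0 were lower, against 1.77%. At 1.5-fold or more 6 were higher, against 6.11%. Keap1 (ratio 1.67) and Nfe2l2 (ratio 1.63) were among them, but their other probe sets, below 500 in both pools, gave 1.22 and 1.08. The 18 genes above 500 in both pools held 2 higher by 2-fold or more, 0 lower and 5 higher by 1.5-fold or more. The highest ratio was that of Nr1i3, the gene of CAR, with a signal of 2819 in FLS livers and 1020.0 in DS livers (ratio 2.76, between 2.73 and 3.19 under other scalings), followed by Ahr. Nr0b2, the gene of the repressor SHP, had 2887 in FLS livers and 1465 in DS livers (ratio 1.97). Bcl6, a repressor of sex-dependent liver genes, had 767 in FLS livers and 448 in DS livers (ratio 1.71). Bcl6 passed the signal limit only through FLS livers, where it is high, and its other probe set, at 329 and 287, gave 1.15. Nr1i2, the gene of PXR, had 474 in FLS livers and 543 in DS livers and passed the limit only through DS livers. Its ratio of 0.872 ran from 0.846 to 1.01 under other scalings. The median log2 ratio of the measured regulators was 0.21, but 0.13 without a signal limit and 0.076 with the median over the probe sets of each gene, where it was 0.02 for the enzymes and 0.04 for all measured genes as read from the brightest probe set.

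Known targets of PXR and CAR outside the listed families were read in the same samples. Of 24 genes 18 were measured, with 5 higher by 2-fold or more, 1 lower by as much (against 2.29% and 1.77% of all measured genes) and a median log2 ratio of 0.11. Of these 18 genes 5 passed the signal limit in 1 pool only, Cyp2b10, Cyp2c37 and Cyp2b13 among them. The 13 genes above 500 in both pools had ratios from 0.749 to 2.39, with 3 higher by 2-fold or more, 0 lower and a median log2 ratio of 0.082. All 21 measured enzyme genes exceeded 500 in both pools. Cyp2c37 had a signal of 1921 in FLS livers and 417 in DS livers (ratio 4.61), and the glutathione transferase gene Gstm2 had 2156 and 903 (ratio 2.39). Cyp3a11, a PXR target, stayed at 1.02 beside them. This list was drawn up with earlier results of these arrays known, so its counts are a description.

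**Figure D5:**
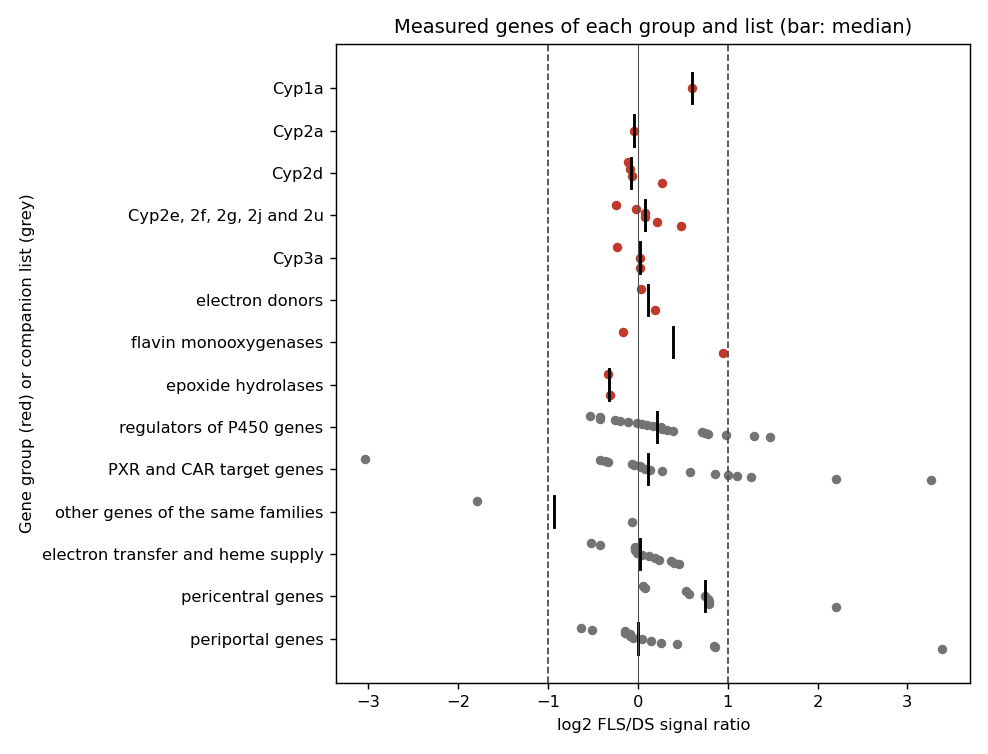
The log2 FLS/DS signal ratio of the measured genes in each enzyme group (red) and in each companion list (grey), 1 point per gene, with a black bar at the median of each row and dashed lines at a 2-fold difference. All red points lie between the dashed lines and come from genes above 500 in both pools, while some grey points, such as Cyp2b10, Cyp2b13, Cyp2c37, Slc1a2 and Cdh1, come from genes above 500 in 1 pool only.

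Several of the listed enzymes are known as pericentral, Cyp2e1 and Cyp1a2 among them, so other pericentral genes were compared. Of 18 such genes 15 were on the array, of which 14 had a ratio above 1, low signals included, and Slc1a4 had 0.957. Among all 5076 measured genes, from which low signals are left out, 2861 had a ratio above 1. Of the 9 measured pericentral genes, Cyp2c37 and Slc1a2 passed the signal limit only through FLS livers, where they are high. The 7 genes above 500 in both pools had ratios from 1.04 for Cyp27a1 to 1.74 for Oat. Oat had a signal of 11562 in FLS livers and 6663 in DS livers (ratio 1.74), Gulo had 5270 and 3049.8 (ratio 1.73), and the glutamate transporter gene Slc1a2 had 619 and 360.2 (ratio 1.72). Over the 9 measured genes the median log2 ratio came to 0.75, and 0.71 to 0.95 under other scalings, but it was 0.57 over the 7 genes above 500 in both pools and also 0.57 over all 15 genes. The 14 measured periportal genes had a median log2 ratio of -0.0026, and the 12 of them above 500 in both pools ran from Asl at 0.644 to Ctsc, the cathepsin C gene, at 1.82. Cdh1, the E-cadherin gene, had 1292 in FLS livers and 124 in DS livers, which is the level of the DS array median, so no size is given for its ratio. Cyp2e1 at 1.06 lay near the lower end of the 7 pericentral genes and Cyp1a2 at 1.52 within their range.

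Markers of the cell types of the liver were read beside these results. Of the 7 measured hepatocyte markers the 6 above 500 in both pools had ratios between 1.01 and 1.12, the other one, Ass1, had 607 in FLS livers and 449 in DS livers, and their signals summed to 121939 in FLS livers and 117216 in DS livers. The 8 markers of Kupffer cells and macrophages summed to 4555 in FLS livers and 6025 in DS livers. Of these, Csf1r and Cd5l exceeded 500 in both pools, with ratios of 0.993 and 0.657. Vsig4, Clec4f and Adgre1 passed the limit only through DS livers, where they are high, with 408 in FLS livers and 736 in DS livers for Vsig4. The other 3 stayed below 500 in both pools, and among them Cd68 had a ratio of 1.26. Of 8 stellate cell markers 4 were measured, with ratios between 1.16 and 1.38. All 8 stellate cell markers, low signals included, summed to 13304 in FLS livers and 10100.1 in DS livers, but only 5 of the 8 had a ratio above 1. Of 7 markers of sinusoidal endothelium 3 were measured, with ratios between 0.976 and 1.34. None of the markers of cholangiocytes, neutrophils, T and NK cells or B cells exceeded 500 in either pool. The part of the cell make-up in the values of the enzymes was not tested.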

How the data were processed

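Pooled liver RNA of 3 FLS mice and 3 DS mice was measured on Affymetrix mouse genome arrays, 1 per strain. The deposited signal intensities are linear model-based expression indices (MBEI) that the authors fitted to perfect-match probes and normalized. For software, the submitters' processing notes list affy with no version. Symbols of 34754 of 34958 probe sets with 1 symbol were brought up to date through Entrez numbers in RefSeq (GRCm38.p6), and 932 probe sets with several symbols and 9211 unnamed ones gave no gene values. FLS/DS ratios were taken per probe set without an offset, and a gene was read from its brightest probe set. As there is 1 array per strain, no test was run, and the number of arrays limits the precision. A ratio counted as moved by an alternative at a shift over 0.22 (log2), which is the SD among measured probe sets of the same gene, pooled over 1424 genes, and the median of the listed genes at 0.061, the standard error of a median from that SD. Counts moved at 1.5 times.

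Alternatives were quantile normalization, centring, loess (fraction 0.4), division by Actb, an offset of 50, the median over probe sets, omission of names ending in _x_at or _s_at, signal limits of 200, 1000 or none, 500 in both pools, and folds of 1.5 and 3. From each companion list up to 4 measured genes with the largest difference were named, plus Ahr, Nr1i2, Nr1i3, Actb and the sex chromosome transcripts. Low AHR targets, neighbours in gene clusters, Keap1, Nfe2l2, Cyp27a1, Slc1a4 and Cd68 were added after values were seen. So were the division of lists by signal in both pools, the window of 1.2-fold and the comparison with signals above 5000. The genes and lists were chosen with earlier results of these data known. The calculations were tested on simulated data. The software was Python 3.11.15 with pandas 2.3.3, matplotlib 3.10.9, numpy 2.4.6 and statsmodels 0.14.6.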

Additional observations from a re-analysis of the deposited data

How the results depend on the processing

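The count of 0 enzyme genes at least 2-fold lower in FLS livers was the same under all 13 alternatives. The count of 0 at least 2-fold higher became 1 (Fmo1) after division by Actb and 2 (Fmo1 and Cyp1a2) at a ratio of 1.5, and their median log2 ratio became 0.23 after division by Actb, where that of all measured genes became 0.25. Among all measured genes, 116 were at least 2-fold higher and 90 lower. These counts were 310 and 228 at a ratio of 1.5, 40 and 39 at a ratio of 3, 54 and 49 with a signal above 500 in both pools, 180 and 129 without a signal limit, and 171 and 72 after division by Actb. Of the single enzyme ratios under alternatives 145 moved by less than 0.22 on the log2 scale. The remaining 2 belong to Fmo5, whose log2 ratio became -0.51 with the median over its probe sets or without the probe set ending in _s_at. Many of the 145 could not have moved by more. Centring and division by Actb each shift all log2 ratios by the same amount, which is below 0.22. A gene with a single probe set keeps its ratio under the median over probe sets. Cyp2a12, Cyp2d9, Cyp2d10, Cyp2d26, Cyp2f2 and Fmo5 changed sides under at least 1 scaling, while 11 of the 21 genes stayed above 1 and 4 below. Of the median log2 ratios of groups and lists under alternatives 125 stayed within the error of a median from the SD of 0.22, and 26 moved by more, of which 14 after division by Actb. Those of the regulators, the pericentral genes, the stellate cell markers, the female-biased genes and the electron transfer list also moved under other alternatives. No paired analysis was possible because each strain has a single pool, and no replicate could be left out.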

Other observations

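Liver genes known to be male-biased or female-biased in mice, read because several phase I enzymes are sex-dependent, differed between the pools in both directions. Of 10 measured male-biased genes, 1 was higher by 2-fold or more in FLS livers and 2 were lower by as much. Of all measured genes 2.29% were higher and 1.77% lower. The male-biased genes had a median log2 ratio of -0.35, and of -0.15 after division by Actb. For all measured genes these medians were 0.04 and 0.25. Ugt2b38, a glucuronosyltransferase, had a signal of 647 in FLS livers and 3001 in DS livers, and Cyp7b1, an oxysterol hydroxylase, had 3955 and 8163. Elovl3, a fatty acid elongase, had 2618 in FLS livers and 1298 in DS livers, and Cyp4a12a, a fatty acid hydroxylase, had 4942 and 6917. Of 14 female-biased genes on the array 4 were measured, and over all 14, low signals included, the median log2 ratio was 0.02. Among the 4, Rtn4, which encodes a protein that shapes the endoplasmic reticulum, had 3828 in FLS livers and 757 in DS livers. Cyp2b10, Cyp2b13 and Cyp2b9 are given above. Cyp2d9, the male-predominant enzyme among the listed genes, had a ratio of 0.925 beside them.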
